A study of Mus musculus with 10 samples.

Results

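The comparison described here is the loss of Mphosph8 in adult neurons. It set 3 libraries of mice with the genotype Mphosph8fl/fl Nestin-Cre+ (Mphosph8Δ/Δn, called knockout) against 3 libraries of Mphosph8fl/fl Nestin-Cre- mice (called control), 6 of the 10 libraries of the series. These 6 were taken by the genotype in their labels, and all genes of their count tables were used. The strain was C57BL/6J and the age adult throughout. Both groups carry loxP sites on both alleles of Mphosph8, so that the Nestin-Cre transgene is the only labelled difference. Nestin-Cre acts in neural progenitors, and glia that descend from them carry the deletion too. No library with Nestin-Cre and no floxed allele was analysed here, so that in this comparison an effect of the transgene and one of the deletion cannot be told apart. The Morc2afl/fl Nestin-Cre+ libraries of the series, which carry the transgene with another floxed gene, entered only 1 alternative fit and were not compared. Nuclei that bound an antibody against NeuN, a nuclear protein of most mature neurons, were sorted from brains, and their poly(A) RNA was sequenced. At least 2 brains per genotype are stated, but not which brain gave which library, and p-values measure only the spread between these libraries.

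Mphosph8 encodes MPP8, a chromodomain protein that binds histone H3 trimethylated on lysine 9. With TASOR and periphilin it forms the HUSH complex, which works with the methyltransferase SETDB1 and the ATPase MORC2 to keep transposable elements, retrocopied genes and other transcription units silent. The clustered protocadherins (cPcdhs) are cell adhesion proteins of neurons, encoded by the Pcdha, Pcdhb and Pcdhg arrays on 1 chromosome. Each neuron transcribes a few of their promoters, and the combination gives it an identity at its surface.

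The deleted exon is shown first because it sets what the counts can tell of the genotype. Exon 4 of Mphosph8 (chr14:56676522-56676618 of GRCm38, plus strand, GENCODE M21 transcript Mphosph8-201) is a coding exon of 97 bases, 1 more than a multiple of 3. The sequences below read 5′ to 3′ along the RNA. Capitals mark the first stop codon that is met in exon 5 when exon 3 is joined to it. Exon 5 is shown only up to that stop (chr14:56678564-56678680).
Exon 4: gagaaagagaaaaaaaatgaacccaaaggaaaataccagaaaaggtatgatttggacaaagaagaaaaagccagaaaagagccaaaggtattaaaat
Exon 5 read after exon 3: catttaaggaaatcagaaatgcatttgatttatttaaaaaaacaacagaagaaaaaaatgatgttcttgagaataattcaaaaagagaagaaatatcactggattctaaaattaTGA

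The intact transcript has 858 codons, of which 406 lie before exon 4. Without the exon the frame ran on for 38 codons to that stop, 444 codons in all, and 1106 bases remained from the stop to the last exon junction. Exon 4 holds 2.7% of the exonic bases of the gene, so the missing bases themselves change a count over the whole gene little. A transcript with a stop so far before its last junction can be subject to nonsense-mediated decay, which would lower the count. Levels are given in CPM, a gene's counts per 1000000 counts of the library. Mphosph8 (ENSMUSG00000079184) had 32.0, 33.5 and 36.9 CPM in the control libraries and 37.3, 35.9 and 18.9 CPM in the knockout libraries. Knockouts 1 and 2 lay at the control level and knockout 3 below it, and the groups overlapped (log2 fold change -0.15, SE 0.25, edgeR adjusted p = 0.95). No such lowering was seen in knockouts 1 and 2, so the gene count did not check the genotype labels, and knockout here means a library labelled so. The paper reports loss of Mphosph8 in whole knockout brains by quantitative RT-PCR and immunoblot. It also measured Mphosph8 RNA in sorted NeuN+ nuclei by RT-PCR. These measures were not linked here to single libraries.

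The libraries held 8092537, 10346120 and 10764555 counts in control replicates 1 to 3 and 9602104, 10357845 and 9475921 in knockout replicates 1 to 3. A count of 0 allowed up to 0.279 to 0.374 CPM, counting error only. Rbfox3, which encodes NeuN, had 238, 230 and 272 CPM in control and 212, 303 and 302 CPM in knockout libraries. A list of 12 general neuronal genes, among them Snap25, Syt1 and Eno2, summed to 1213 CPM per kb of exon in control and 1182 in knockout libraries, against 232 and 221 for astrocyte genes, 148 and 154 for oligodendrocyte genes, 35.7 and 33.4 for microglial genes and 12 and 13.4 for endothelial genes. Defining markers of other cells ranged from near 0 to levels above that of Rbfox3. Cldn5 (endothelium) averaged 0.254 CPM in control and 1.01 CPM in knockout libraries, Gfap (astrocytes) 2.33 and 5.07 CPM, and Mbp (myelin) 542 and 543 CPM. None of the members tested of the astrocyte, oligodendrocyte, precursor, microglial and endothelial lists was called (0 of 12, 12, 8, 11 and 6 by edgeR), and 1, 1, 0, 0 and 1 had an unadjusted p below 0.05.

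Knockout 3 stood apart from the other 5 libraries on the first principal component of log CPM (30.5% of the variance), at 86.0 against -24.2 to -11.4. The second component (24.6%) spread knockout 2 (-67.7) and control 2 (47.4). Replicates of 1 group differed by more than counting error, with a chi-square per degree of freedom of 9.55 to 20.3, and none was a second copy of another. Results that lean on knockout 2 or 3 are given by library below.

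Of 16450 genes in edgeR's quasi-likelihood test, those with more than a 2-fold change and an adjusted p under 0.05 were called. Where no other tool or setting is named, a call means this test. All 14 called genes were higher in knockout neurons, which is 0.0851% of the genes tested, and none was called lower. Of the 14, 8 were cPcdhs and 1 was 3222401L13Rik, a long intergenic noncoding RNA (lincRNA) that lies inside the same cluster on chromosome 18. The other 5 were Zfp990, Dnah1, Gm19026, Afm and Rnf113a2, on 5 different chromosomes. At an unadjusted p below 0.05, 598 genes were higher and 478 lower. DESeq2 called 43 genes higher and 3 lower and limma-voom 11 higher and 1 lower. DESeq2 kept all 14 calls of edgeR and limma-voom kept 11.

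The number of calls rested on every library. It was 6 without control 1, 4 without control 2, 4 without control 3, 5 without knockout 1, 5 without knockout 2 and 28 without knockout 3. Only 3222401L13Rik, Pcdhb17, Pcdhb6 and Pcdhb8 were called under all 13 alternatives that refitted the test. Without knockout 3, the library that stood apart, 12 of the 14 were kept, and Afm (adjusted p = 0.0989) and Rnf113a2 (0.0539) were lost.

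**Figure D1:**
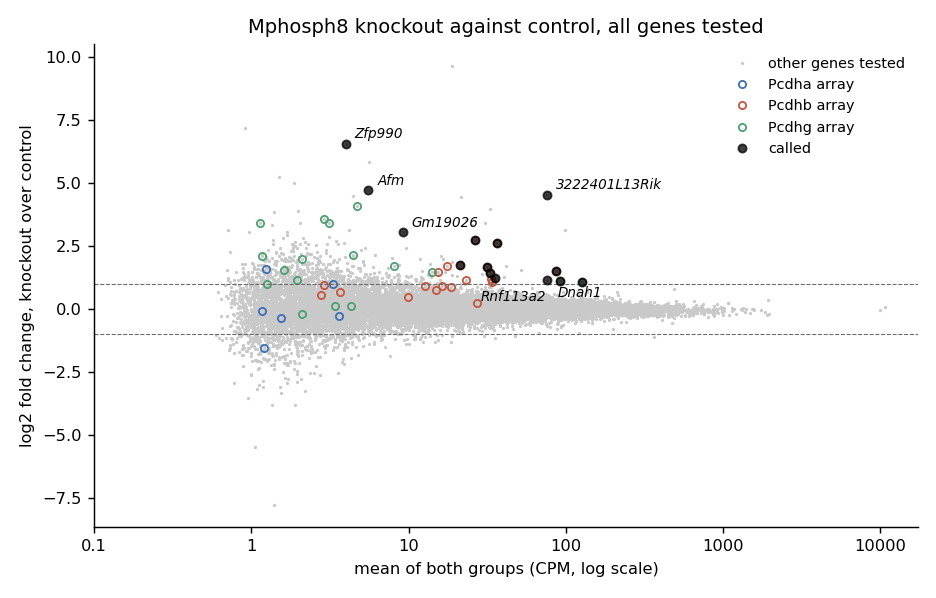
Each point is 1 of 16450 genes, with the mean CPM of both groups on a log scale across and the log2 fold change of knockout over control upward; dashed lines mark a fold change of 2. Black points are the 14 called genes, all above the upper line, and names stand beside the 6 of them that are no protocadherins.

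The cPcdhs as a group were higher in knockout neurons. Their summed level was 424, 448 and 472 CPM in control and 1223, 1022 and 988 CPM in knockout libraries, 2.41 times the control mean (log2 difference 1.27). No knockout library came near a control. The cPcdhs took 0.0424 to 0.0472% of the counts of a control library and 0.0988 to 0.122% of those of a knockout library. At least 10 CPM was reached by 10, 15 and 14 of the 58 members in control and by 20, 22 and 22 in knockout libraries, while the number of members with any count, 50, 47 and 52 against 54, 49 and 43, did not separate the groups.

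The arrays differed in level. Pcdhb genes, most of them single exons with a promoter each, summed to 226, 283 and 283 CPM in control and 744, 650 and 624 CPM in knockout libraries (log2 difference 1.35). Pcdhg genes, whose variable first exons are spliced to shared last exons, summed to 183, 148 and 177 CPM in control and 445, 359 and 357 CPM in knockout libraries (1.19). Both arrays were above every control library in every knockout library. Pcdha genes, built like Pcdhg genes, were scarce, with 15.3, 16.6 and 12.6 CPM in control and 33.5, 12.9 and 7.0 CPM in knockout libraries. Only knockout 1 lay above the controls there, and without it the log2 difference of the Pcdha sums turned from 0.26 to -0.58.

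**Figure D2:**
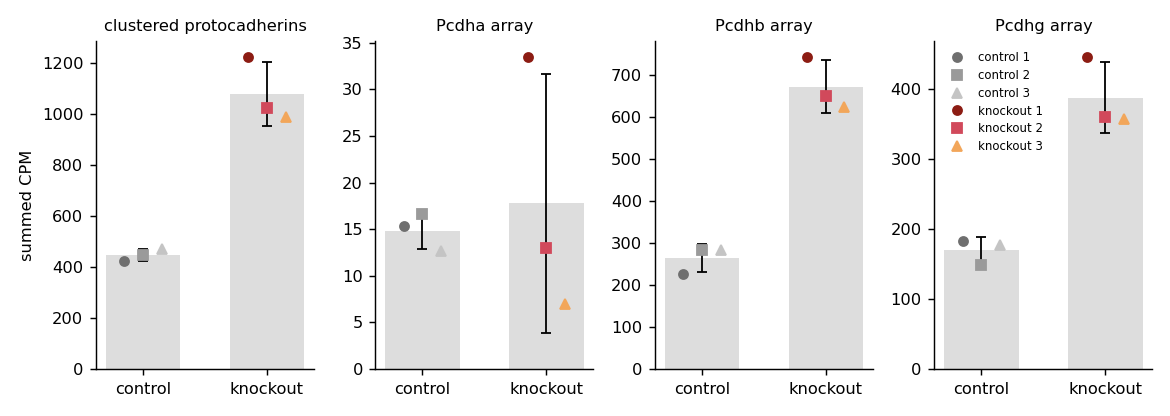
Summed CPM of all 58 cPcdhs and of each array; bars are the mean of 3 libraries, error bars the SD and points the libraries. The knockout sums of the Pcdhb and Pcdhg arrays lie above every control sum, and those of the Pcdha array span 7.0 to 33.5 CPM around the controls.

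Enough counts for the test were found for 43 of the 58 members (20 in Pcdhb, 17 in Pcdhg, 6 in Pcdha). Counts of members tested include some that passed through their knockout level, so they describe the array and lend it no support. The log2 fold change was above 0 in 20 of 20 Pcdhb, 16 of 17 Pcdhg and 2 of 6 Pcdha genes, with medians of 1.10, 1.53 and -0.19, where all genes tested had a median of 0.0025 and 50.3% above 0. The Pcdha median turned to 0.41 without control 1 and to 0.34 without knockout 2. All knockout libraries were above every control in 15 Pcdhb and 9 Pcdhg genes, where 6.64% of all genes tested were so. The 15 members that were not tested ranged from no count in any library (Pcdhga10) to 0, 0 and 0 CPM in control and 0.520, 6.66 and 4.05 CPM in knockout libraries (Pcdhga7), at least 36.4-fold higher against 3 counts over the control group.

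Pcdhb17 was the most abundant member of its array. It had 39.5, 44.7 and 50.8 CPM in control and 139, 123 and 122 CPM in knockout libraries, with no overlap. Its rise was 2.85-fold in mean CPM (log2 fold change 1.51, SE 0.15, edgeR adjusted p = 0.000990). Per kb of exon, its mean level went from 9.66 to 27.5 CPM.

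Pcdhb6 and Pcdhb8, which lie beside Pcdhb7, showed the largest fold changes of the called cPcdhs. Pcdhb6 had 3.61, 10.4 and 6.69 CPM in control and 50.1, 46.8 and 41.2 CPM in knockout libraries (log2 fold change 2.72, SE 0.32, edgeR adjusted p = 0.00324). Pcdhb8 had 12.1, 4.98 and 13.8 CPM in control and 65.7, 67.5 and 53.5 CPM in knockout libraries (2.6, SE 0.30, adjusted p = 0.00324). In both genes the lowest knockout library was more than 3 times the highest control. The 2 genes share 4.26% (of Pcdhb6) and 4.61% (of Pcdhb8) of their 50-base stretches, the length of a read here, a small part of their length.

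Pcdhb7, between them, had 15.1, 19.5 and 18.5 CPM in control and 50.3, 42.4 and 51.1 CPM in knockout libraries (log2 fold change 1.44, edgeR adjusted p = 0.0168). Pcdhb11 and Pcdhb14 were called with log2 fold changes of 1.73 (adjusted p = 0.0283) and 1.67 (0.0276), and their adjusted p reached 0.193 without 1 library. Their neighbours differed in size. Pcdhb9 had 24.8 ± 8.37 CPM (SD, n = 3) in control and 29.3 ± 12.9 CPM in knockout libraries, a log2 fold change of 0.23 (SE 0.32), and Pcdhb19 had one of 0.45 (SE 0.44). Pcdhb15, Pcdhb20 and Pcdhb21 were not called, at log2 fold changes of 1.71, 1.17 and 1.06 and adjusted p = 0.0702, 0.0702 and 0.152, though no knockout library of theirs overlapped a control. DESeq2 called these 3 and, with them, Pcdhb18, Pcdhb22, Pcdhga2, Pcdhga4 and Pcdhga6, 16 cPcdhs in all.

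In the Pcdhg array, Pcdhgc4 and Pcdhga12 were the most abundant members and the called ones. Pcdhgc4 had 97.0, 66.5 and 80.1 CPM in control and 202, 160 and 149 CPM in knockout libraries (log2 fold change 1.07, SE 0.16, edgeR adjusted p = 0.0229). Pcdhga12 had 59.9, 52.0 and 64.4 CPM in control and 143, 100 and 133 CPM in knockout libraries (1.09, SE 0.16, adjusted p = 0.0202). Of their 50-base stretches 37.1% and 36.9% occur in other genes, most of them in another Pcdhg gene (37% of Pcdhgc4 in Pcdhga12 and 31.4% of Pcdhga12 in Pcdhga6), so that these counts may hold reads of other Pcdhg RNAs.

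Some Pcdhg genes were close to absent from control neurons. Pcdhga4 had 0.623, 0 and 0.930 CPM in control and 7.59, 8.29 and 10.7 CPM in knockout libraries (log2 fold change 4.07, SE 0.78, edgeR adjusted p = 0.0774). Pcdhga2 had 0.249, 0.879 and 0.186 CPM in control and 5.72, 7.91 and 2.49 CPM in knockout libraries (3.57, SE 0.82, adjusted p = 0.200). The groups did not overlap in either gene, and neither was called by edgeR. Pcdhgb1, next in abundance, had a log2 fold change of 1.46 (SE 0.40, adjusted p = 0.414). At the far end of the array Pcdhgc5 had 4.15 ± 1.61 CPM in control and 4.52 ± 1.76 CPM in knockout libraries (SD, n = 3).

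**Figure D3:**
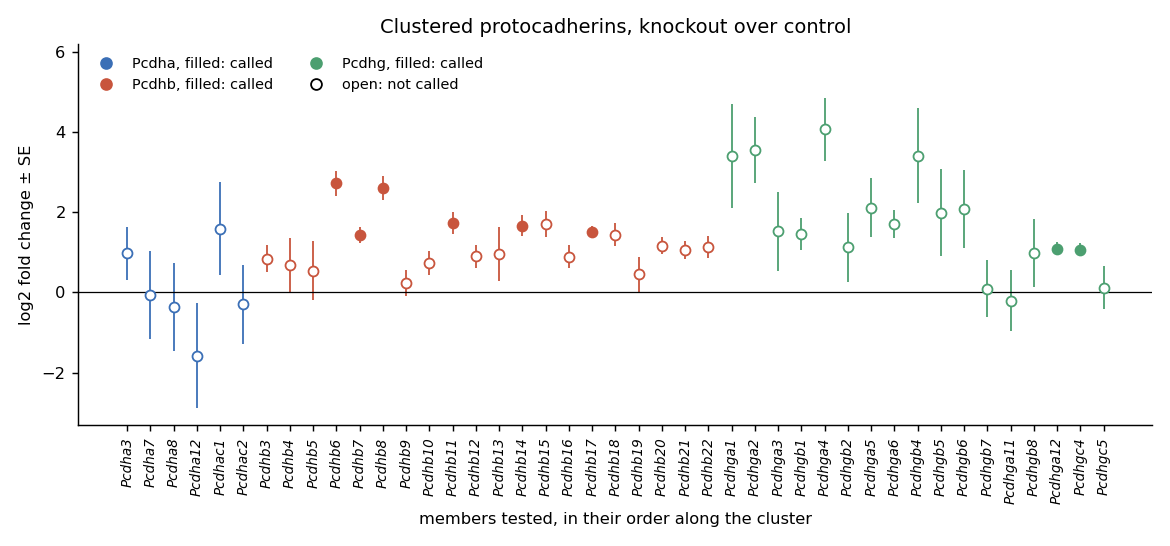
Log2 fold change of knockout over control, with its SE, for the 43 cPcdhs tested, in gene order from the Pcdha to the Pcdhg array; filled points are called. All 20 Pcdhb genes lie above 0, from 0.23 to 2.72, and the Pcdha genes scatter from -1.58 to 1.59 with wide errors.

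The summed rise was carried by few members. Pcdhgc4 made up 14.2% of it, Pcdhb17 13.2% and Pcdhga12 10.5%, and the first 5 members with Pcdhb8 and Pcdhb6 made up 52.4%. Pcdhac2, Pcdha3 and Pcdha8, the most abundant Pcdha genes by the mean of all 6 libraries, had mean levels of 4.01, 2.23 and 1.75 CPM in control and 3.25, 4.4 and 1.35 CPM in knockout libraries, with log2 fold changes of -0.30 (SE 0.99), 0.97 (SE 0.67) and -0.37 (SE 1.10).

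Of the genes tested within the cluster, the largest log2 fold change was that of 3222401L13Rik (chromosome 18, 37655451 to 37661742, plus strand, 1 exon of 6292 bases), which lies between the Pcdhb and Pcdhg arrays. It had 4.48, 9.08 and 5.02 CPM in control and 179, 137 and 118 CPM in knockout libraries. Its rise was 23.3-fold in mean CPM (log2 fold change 4.53, SE 0.26, edgeR adjusted p = 2.06e-06), and its exon shares no 50-base stretch with another annotated gene. In control libraries it stood at 0.985 CPM per kb, below Pcdhb17 and Pcdhgc4 (14.5 CPM per kb), and in knockout libraries at 23.0 CPM per kb, between Pcdhb8 (17.9) and Pcdhb17 (27.5).

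Of 7 tested genes inside the cluster that are no protocadherins, it was the only one called by edgeR. Their median log2 fold change was 1.15, and without overlap 4 were higher and 1 lower, where 6.64% and 6.21% of all genes tested were so. Gm37446, an antisense gene, had 0.249, 0.293 and 0.465 CPM in control and 6.03, 2.12 and 3.12 CPM in knockout libraries (edgeR adjusted p = 0.297), and was called by DESeq2 (adjusted p = 0.0404). Taf7, which encodes a subunit of the general transcription factor TFIID, had 12.9 CPM in control and 9.99 CPM in knockout libraries (log2 fold change -0.37, SE 0.31). Of the 20 genes tested in the 1 Mb before the cluster and the 12 in the 1 Mb after it, none was called by edgeR, with median log2 fold changes of -0.042 and 0.12. The flanking genes with the smallest p were Ik, Ndufa2 and Wdr55, at unadjusted p of 0.0623, 0.0853 and 0.0865.

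Outside chromosome 18, 2 of the 5 called genes, Zfp990 and Afm, had control means below 1 CPM. Zfp990, a zinc finger gene of chromosome 4 (145510759 to 145539188), had 2, 0 and 0 counts in control and 65, 66 and 101 counts in knockout libraries, or 6.76, 6.37 and 10.5 CPM. All knockout libraries were far above all controls. The ratio of the summed counts was 115, with a 95% counting interval of 31.5 to 956, and the edgeR adjusted p was 0.0168. Zfp990 shares 29.1% of its 50-base stretches with 53 other genes, most with Zfp987 (13.1%), so part of its reads cannot be told from those of its relatives.

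Afm, on chromosome 5, encodes afamin, a vitamin E-binding glycoprotein of blood plasma that is made in the liver. It had 0, 0.879 and 0.279 CPM in control and 7.59, 8.01 and 16.6 CPM in knockout libraries (log2 fold change 4.70, SE 0.76, edgeR adjusted p = 0.0340). The lowest knockout library was more than 8 times the highest control. Its adjusted p was 0.443 in limma-voom.

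Dnah1, on chromosome 14, encodes a heavy chain of axonemal dynein, the motor of cilia and sperm tails. It had 50.3, 39.0 and 53.9 CPM in control and 103, 94.3 and 114 CPM in knockout libraries (log2 fold change 1.12, SE 0.17, edgeR adjusted p = 0.0181). Rnf113a2, on chromosome 12, is an intronless retrocopy of the spliceosomal RING finger gene Rnf113a1. It had 25.8, 18.5 and 19.5 CPM in control and 56.6, 43.8 and 49.7 CPM in knockout libraries (1.24, SE 0.21, adjusted p = 0.0444), and shares no 50-base stretch with another gene. Rnf113a1 itself had a log2 fold change of 0.47 (SE 0.38, adjusted p = 0.904). Both called genes were expressed in control neurons, and their groups did not overlap.

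Gm19026, a processed pseudogene of chromosome 1 (6429655 to 6441296, minus strand), had 2.12, 1.17 and 2.6 CPM in control and 24.6, 13.8 and 10.6 CPM in knockout libraries (log2 fold change 3.05, SE 0.45, edgeR adjusted p = 0.0181). Of its 50-base stretches 22.9% occur in Camsap1, which encodes a microtubule minus-end protein. Camsap1 had a log2 fold change of -0.10 (SE 0.12).

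**Figure D4:**
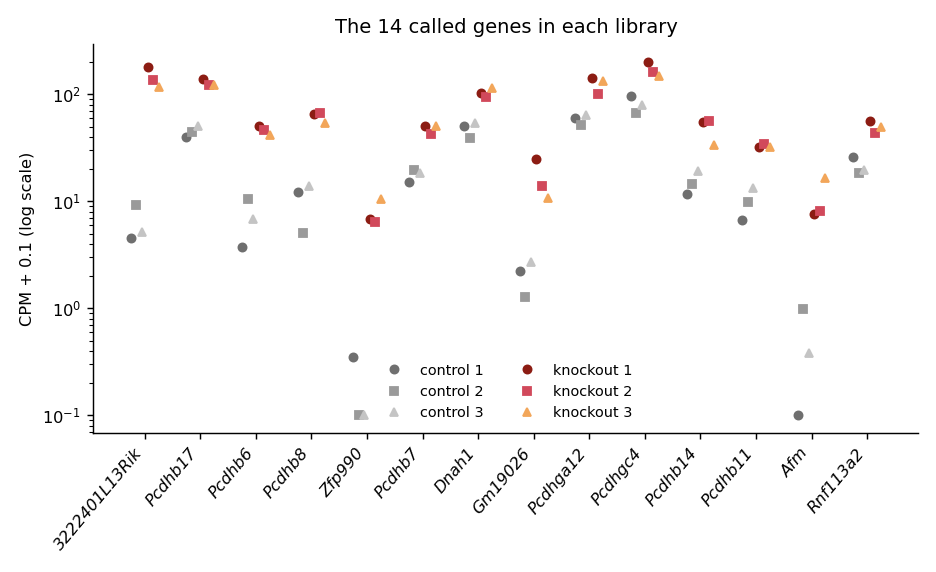
CPM plus 0.1 on a log scale for the 14 called genes in the 3 control libraries (gray) and the 3 knockout libraries (colors). In all 14 genes every knockout library lies above every control library, by little in Pcdhgc4 and by more than 10-fold in 3222401L13Rik and Zfp990.

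RefSeq promoters (GRCm38.p6) were held for 2 of the 14 called genes, Afm and Dnah1. Their 250 bases before the start are shown because these are called genes outside the cluster for which the start is known, one nearly without RNA in control neurons and one expressed. Capitals mark each CG, the dinucleotide that DNA methylation acts on, which reads the same on both strands.
Afm, chr5:90518699-90518948, plus strand: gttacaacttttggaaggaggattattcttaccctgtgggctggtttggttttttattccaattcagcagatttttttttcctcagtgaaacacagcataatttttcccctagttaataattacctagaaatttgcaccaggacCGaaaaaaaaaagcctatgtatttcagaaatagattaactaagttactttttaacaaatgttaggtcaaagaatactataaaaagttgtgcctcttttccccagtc
Dnah1, chr14:31323897-31324146, minus strand: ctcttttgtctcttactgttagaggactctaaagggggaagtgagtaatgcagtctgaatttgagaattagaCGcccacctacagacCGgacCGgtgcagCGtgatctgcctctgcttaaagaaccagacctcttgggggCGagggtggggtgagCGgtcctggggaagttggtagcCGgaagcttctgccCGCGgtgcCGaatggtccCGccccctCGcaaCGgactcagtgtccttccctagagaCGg

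The Afm window holds 1 CG and the Dnah1 window 14. Of 32851 windows of this length, 92.1% hold at least 1 CG, with a median of 6. The Afm window has fewer than most and the Dnah1 window more than 70.6% of them. The bases are 33.2% G or C in the Afm window and 57.6% in the Dnah1 window.

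Of 9 tested genes of the HUSH and SETDB1 list, which holds Mphosph8 itself beside its partners, none was called. Their median log2 fold change was -0.0096 and 1 had an unadjusted p below 0.05 (Morc2a). Fam208a, which encodes TASOR, had 63.5, 66.6 and 64.0 CPM in control and 90.4, 62.9 and 78.7 CPM in knockout libraries (0.26, SE 0.16). Morc2a had 162, 139 and 137 CPM in control and 186, 200 and 154 CPM in knockout libraries (0.30, SE 0.13, edgeR adjusted p = 0.737). Pphln1, which encodes periphilin, was scarce at 5.54 and 5.52 CPM, and the counts of both groups overlapped in every one of the 9.

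Setdb1 had 157 and 158 CPM in the 2 groups, Atf7ip, its cofactor, 146 and 133 CPM, and Trim28, the corepressor that recruits it to zinc finger proteins, 322 and 292 CPM. Fam208b had 25.5 and 20.8 CPM and Morc2b 28.4 and 31.6 CPM. Atf7ip2 was not tested, with counts in control 1 only. Neither was any of 17 genes for other H3K9 and DNA methylation proteins called, with Dnmt3a at a log2 fold change of 0.11 and Cbx5 at 0.11, nor any of 11 for CTCF and cohesin, the architects of promoter choice in the cluster, with Mau2 at 0.012 and Stag1 at -0.028. In both of these lists no gene had an unadjusted p below 0.05.

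Genes that resemble the called ones by structure were compared as classes. Of all 16450 genes tested, 14 (0.0851%) were called, and no class was tested against that share. Protein-coding genes of 1 exon outside the cluster numbered 271 tested, of which 1 was called (Rnf113a2). Their median log2 fold change was 0.13 and 62.0% were above 0, against 49.6% of 13265 genes with more exons. Without knockout 3 this median was 0.013. Of 301 processed pseudogenes 1 was called (Gm19026), with a median of -0.025. Of 331 genes named Zfp 1 was called (Zfp990). Of 1134 lincRNA and antisense genes 1 was called (3222401L13Rik), close to the share over all genes tested. None of 206 protein-coding genes that span over 500 kb was called, and 3 were higher and 11 lower at an unadjusted p below 0.05. Germline genes, of which 7 of 30 were tested, held no call, with Brdt at 27.5 CPM in control and 27.2 CPM in knockout libraries, and of 11 Skint genes 1 had a count.

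Of the other adhesion genes of neurons none was called by edgeR, and DESeq2 called 1 cadherin (Fat2, given below). For 11 tested protocadherins outside the cluster the median log2 fold change was 0.0053. Pcdh15 had 160 and 178 CPM and Pcdh10 116 and 112 CPM in control and knockout libraries. The median was -0.022 for 22 classical and other cadherins and -0.021 for 45 synaptic adhesion genes. Ptprs, Nrxn3 and Cadm1, the most abundant of the latter, had log2 fold changes of -0.070, -0.11 and 0.17. At an unadjusted p below 0.05 there were 2 of the 22 cadherins, 1 in each direction, and none of the other 2 lists.

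Of the genes of the synapse, none was called among 32 genes of glutamate receptors and the postsynaptic density (median log2 fold change -0.052), 16 of GABA receptors (-0.0069) and 22 of vesicle release (-0.051). Gria2, a glutamate receptor subunit, had 1191 ± 110 and 1169 ± 93.1 CPM (SD, n = 3), Gabbr1 620 and 604 CPM, and Snap25, of the fusion machinery, 1915 ± 105 and 1746 ± 14.7 CPM. At an unadjusted p below 0.05 these lists had 2 higher and 4 lower, 1 and 0, and 1 and 3 genes. The higher ones of the first 2 included Grin2c and Gabra6, which mark cerebellar granule cells and are given below.

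Immediate early genes, which neurons transcribe within minutes of activity, had lower values in knockout neurons, and none was called by edgeR. The log2 fold change was below 0 in 17 of 17, with a median of -0.73. At an unadjusted p below 0.05 there were 12, all lower, and in 11 all knockout libraries lay below every control, where 6.21% of all genes tested did. Arc, which encodes a postsynaptic protein, had 374, 496 and 629 CPM in control and 294, 246 and 155 CPM in knockout libraries (log2 fold change -1.11, SE 0.21, edgeR adjusted p = 0.0754).

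Egr1 and Egr3 are transcription factors of the same response. Egr1 had 219, 252 and 284 CPM in control and 171, 149 and 115 CPM in knockout libraries (-0.80, SE 0.15, edgeR adjusted p = 0.0754). Egr3 had 53.6, 64.1 and 76.0 CPM in control and 24.5, 36.2 and 30.4 CPM in knockout libraries (-1.09, SE 0.20, adjusted p = 0.0702). Knockout 3 was lowest in Arc and Egr1 but not in Egr3. DESeq2 called Egr3 lower and limma-voom Arc, and with at least 10 counts in every library edgeR called Arc and Egr3. Without knockout 3 the median of the list was -0.56. The summed level was 1231, 1584 and 1760 CPM in control and 1039, 977 and 622 CPM in knockout libraries. Dusp1 overlapped between the groups, at a log2 fold change of -0.27. Bdnf had a log2 fold change of -0.34, and all its knockout libraries lay below every control.

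Genes of striatal projection neurons had lower values in the knockout libraries. All 13 tested had a log2 fold change below 0, with a median of -0.26, and none was called, while 2 had an unadjusted p below 0.05. Pde10a, the cyclic nucleotide phosphodiesterase of these neurons, had 600, 529 and 555 CPM in control and 349, 394 and 402 CPM in knockout libraries (-0.56, SE 0.099, edgeR adjusted p = 0.0669). Foxp1, a transcription factor, had 152, 182 and 168 CPM in control and 127, 121 and 130 CPM in knockout libraries (-0.41, SE 0.12, adjusted p = 0.463). In both genes the groups did not overlap. Penk had 934 ± 118 and 799 ± 80.6 CPM (SD, n = 3) and Ppp1r1b 202 ± 13.3 and 169 ± 52.3 CPM. In bulk nuclei, fewer nuclei of a type and less RNA in each cannot be told apart.

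Several genes of cerebellar granule cells were high in knockouts 1 and 2 and near the control level in knockout 3. Their list summed to 241, 324 and 321 CPM in control and 568, 817 and 357 CPM in knockout libraries, with Reln, at 111 and 122 CPM, the most abundant and no gene at 0 in all libraries. Fat2, an atypical cadherin of granule cells, had 2.24, 1.56 and 1.95 CPM in control and 46.4, 75.4 and 2.6 CPM in knockout libraries. Cbln3, a secreted partner of the synapse organizer Cbln1, had 3.86, 6.44 and 5.30 CPM in control and 68.6, 92.2 and 7.68 CPM in knockout libraries. Cbln1 had 18.2, 20.4 and 20.5 CPM in control and 51.8, 101 and 37.0 CPM in knockout libraries. None of the 3 was called (edgeR adjusted p = 0.0702 for each) or called by limma-voom, but all 3 were called by DESeq2, by edgeR with at least 10 counts in every library, and by edgeR without knockout 3. Gabra6, the granule cell subunit of the GABA receptor, followed the same libraries with 2.24, 3.12 and 5.67 CPM in control and 49.6, 74.3 and 4.67 CPM in knockout libraries. Grin2c, a glutamate receptor subunit, had 22.9, 28.7 and 28.7 CPM in control and 69.8, 131.8 and 29.5 CPM in knockout libraries. It was high in the same 2 libraries. The list was not uniform. Slc17a7, a vesicular glutamate transporter, had 15.1, 24.9 and 22.6 CPM in control and 14.7, 14.9 and 18.3 CPM in knockout libraries, and Barhl1, Etv1 and Reln had log2 fold changes of -0.30, 0.13 and 0.13. Of 12 genes tested on this list 8 had an unadjusted p below 0.05, all higher, and the median log2 fold change was 1.03. The part of these cells in the other results was not tested. Purkinje cell genes, the other cerebellar list, had a median of 0.17 with 0 of 9 called. Its defining marker Pcp2 was too scarce for the test, with 0, 0.488 and 0 CPM in control and 4.57, 5.5 and 0.208 CPM in knockout libraries, again high in knockouts 1 and 2.

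**Figure D5:**
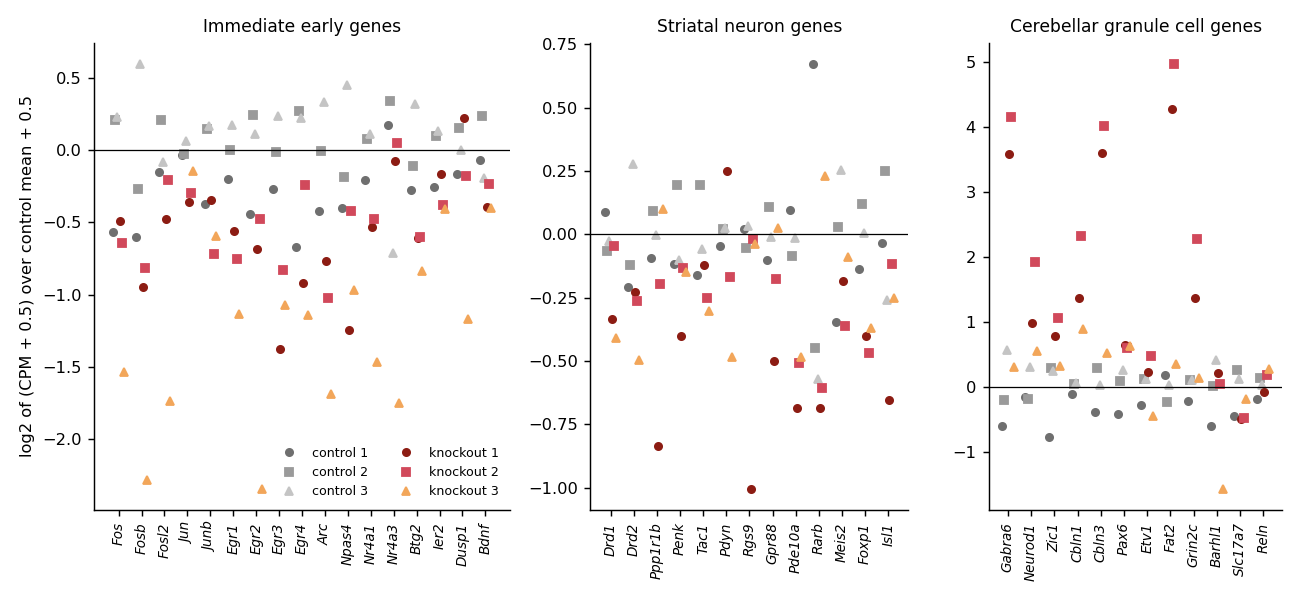
Log2 of each library's CPM plus 0.5 over the control mean plus 0.5, for the tested genes of 3 lists, with control libraries in gray and knockout libraries in color; the vertical scales differ. Knockout values of most immediate early and striatal genes lie below the control mean, and Fat2, Cbln3 and Gabra6 stand far above it in knockouts 1 and 2 and close to it in knockout 3.

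Pituitary hormone RNA was found in knockout 2. Pomc had 3.36, 6.15 and 2.51 CPM in control and 13.6, 162 and 10.5 CPM in knockout libraries, and Gh, growth hormone, had 1, 0 and 0 counts in control and 1.66, 108 and 3.95 CPM in knockout libraries. Prl and Cga had counts in knockout 2 only (17.7 and 7.04 CPM), and Fshb and Ghrhr were at 0 in all libraries. Neither Gh (edgeR adjusted p = 0.0810) nor Pomc (0.152) was called, but both were with no filter on low counts and without knockout 3 (0.0227 and 0.0243). Gh was also called under a replicate block (0.00917) and in the fit of all 10 libraries (0.0403), and Pomc with at least 10 counts in every library (0.0154). The list summed to 663 CPM in knockout 2 and to 324 to 420 CPM in the other 5 libraries, most of it Chga, at 371 and 352 CPM in the 2 groups. Its part in the comparison was not tested.

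Of the other regional and cell lists none held a call. Forebrain excitatory (14 tested, median log2 fold change -0.029), inhibitory (15, 0.051), thalamic (12, 0.13), and midbrain and hindbrain genes (19, 0.25) had 0, 0, 0 and 1 genes at an unadjusted p below 0.05. Gad1 had 908 ± 172 and 822 ± 55.4 CPM (SD, n = 3) and Sst 472 and 534 CPM among inhibitory genes, Rasgrf2 169 and 202 CPM among excitatory ones, and Slc17a6, the glutamate transporter of thalamus and midbrain, 113 and 130 CPM. Choroid plexus and ependymal genes (6 tested, -0.048; 1 higher and 2 lower at an unadjusted p below 0.05) had Ttr at 125 ± 14.7 and 92.7 ± 24.2 CPM. Red blood cell genes (5 tested, -0.26) had Hbb-bs at 24.5 and 20.8 CPM, and oligodendrocyte precursors (0.28) Olig1 at 51.7 and 55.4 CPM. Nuclear noncoding RNAs (15 tested, 0.044), led by Snhg11 at 10379 and 10981 CPM, summed to 22312 and 22533 CPM. Ribosomal protein genes (30 tested, 0.054), led by Rps3 at 230 and 213 CPM and a measure of cytoplasm carried along, summed to 2296 and 2315 CPM.

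Responses that derepressed elements could raise were looked at by name. Of 17 tested genes of interferon response and nucleic acid sensing none was called. Their median log2 fold change was 0.30, and it lost its direction in limma-voom (-0.015) and under a replicate block (-0.012). In this list 2, Ifit3 and Oasl2, had an unadjusted p below 0.05. Oasl2 had 0.498, 1.95 and 0.0930 CPM in control and 5.30, 3.76 and 2.49 CPM in knockout libraries. Stat2, the most abundant, had 59.7 and 73.3 CPM. Genes of the p53 response (10 tested, -0.30, 2 lower at an unadjusted p below 0.05) held no call, with Mdm2 at 97.4 and 99.9 CPM. Of 32 imprinted genes none was called (median 0.047). Meg3 had a log2 fold change of -0.049 and Ndn, an imprinted gene of 1 exon, had 310, 397 and 367 CPM in control and 535, 788 and 517 CPM in knockout libraries (0.78, SE 0.15, edgeR adjusted p = 0.0810).

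The genes closest to a call were few. Dusp14, a dual specificity phosphatase, was the only gene lower at an adjusted p below 0.05 and missed the fold change. It had 155, 181 and 146 CPM in control and 90.2, 82.5 and 76.7 CPM in knockout libraries (log2 fold change -0.95, SE 0.14, edgeR adjusted p = 0.0168). Catsperg1, a subunit of the sperm calcium channel CatSper, had 6.23, 5.27 and 6.88 CPM in control and 19.8, 15.5 and 28.5 CPM in knockout libraries (1.79, SE 0.31, adjusted p = 0.0628). The lincRNA 2010320M18Rik had 3.49, 7.42 and 3.44 CPM in control and 17.6, 17.4 and 21.4 CPM in knockout libraries (1.97, SE 0.36, adjusted p = 0.0702). In these 3 genes the groups did not overlap. Crtam, an immunoglobulin-like adhesion molecule, had 0.623, 0 and 0 CPM in control and 11.7, 18.9 and 2.28 CPM in knockout libraries (adjusted p = 0.0702), again highest in knockouts 1 and 2.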

How the data were processed

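Poly(A) RNA of sorted NeuN+ nuclei was sequenced by the authors as single 50-base reads. Reads were trimmed with Trim Galore 0.5.0, cleared of abundant sequences with Bowtie2 2.3.4.1, aligned to GRCm38 with STAR and counted with featureCounts (Subread 1.6.2), per the submitters' notes and methods. The strand setting and the handling of reads on several genes are not given in the sources used here. The deposited values are raw read counts for 54532 genes, 54495 of them matched to GENCODE M21.

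Counts of the 6 libraries were analysed in edgeR 4.0.16 (R 4.3.3), with filterByExpr (16450 genes kept), TMM and a quasi-likelihood test (common dispersion 0.083), with Benjamini-Hochberg adjustment over all genes tested. CPM were computed from TMM-scaled library sizes. Alternatives were median-of-ratios size factors, no filter, at least 10 counts in every library, all 10 libraries in 1 fit, the replicate number as a block, DESeq2 1.42.0, limma-voom 3.58.1, no minimum fold change, plain CPM for sums, and each library left out. In simulated counts of these libraries (15921 genes), edgeR called 70.5% of 200 genes changed 4-fold, with 1.4% false calls. Lists were described by counts and medians, with no test. The members and lists were chosen with earlier results of these data known. Named were Mphosph8, Rbfox3, HUSH genes, all called genes, the 3 most abundant cPcdhs of each array, the most abundant members of other lists, and the 10 genes of smallest p that were not called and did not overlap. Any further gene was picked with its values in view. Stretches of 50 bases were compared on both strands over all GENCODE M21 transcripts.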

Additional observations from a re-analysis of the deposited data

How the results depend on the processing

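The 14 calls became 79 with no filter, 30 with at least 10 counts in every library, 46 in DESeq2 and 8 under a replicate block, and 4 to 28 with 1 library left out. The same 14 genes were kept with no filter, DESeq2 and median-of-ratios size factors. The 0 genes called lower became 13 with no filter, 2 with at least 10 counts in every library, 3 in DESeq2, 1 in limma-voom, 1 with no minimum fold change, and 0 to 1 with 1 library left out. The 8 cPcdhs called became 18 with no filter, 16 in DESeq2, 5 with the block, and 3 to 8 with 1 library left out. Same-numbered libraries did not deviate together (residual correlations 0.0304, -0.00193 and -0.000651), and the numbers were not taken as pairs in the main test. The labels do not say which libraries come from littermates. The summed Pcdha difference was -0.58 to 0.64 with 1 library left out. The single genes followed here that turned sign were not called: Setdb1 (-0.0051 with the block, -0.0016 in limma-voom, and -0.13 to 0.14 with 1 library left out), Mphosph8 (-0.32 to 0.095), Pphln1 (-0.20 to 0.22), Pcdhac2 (-2.18 to 0.28) and Pcdha8 (-1.37 to 0.24), the ranges with 1 library left out. List medians turned too, among them interferon genes (-0.012 with the block, -0.015 in limma-voom), oligodendrocyte precursors (-0.054 and -0.086) and H3K9 and DNA methylation genes (-0.092 without knockout 2), and also those of endothelial genes (from -0.15 with all libraries to 0.59 without control 2), microglial genes (from -0.18 to 0.030 likewise) and others. The cause of these shifts was not tested. Below about 0.3 CPM a gene could not be told from 0.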

Other observations

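Further genes were called by DESeq2 and not by edgeR at the settings of the report, and were chosen here after their values were seen. With no filter on low counts edgeR also called Map10, Klhl40, Alpl, Fbln2 and Myl9. Map10, a microtubule-associated protein gene of 1 exon, had 2.37, 1.46 and 1.21 CPM in control and 10.3, 9.07 and 7.48 CPM in knockout libraries (edgeR adjusted p = 0.103). Klhl40, which encodes a kelch protein of skeletal muscle, had 6.10, 9.28 and 12.1 CPM in control and 22.3, 26.8 and 26.4 CPM in knockout libraries (0.0960). Alpl, tissue-nonspecific alkaline phosphatase, had 0, 0.293 and 0 CPM in control and 1.98, 4.34 and 4.57 CPM in knockout libraries. Slc22a29, a gene of the organic anion transporter family, had no count in control and 3.12, 1.35 and 1.04 CPM in knockout libraries, at least 17.9-fold higher against 3 counts over the control group. In these 4 genes no knockout library overlapped a control.

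DESeq2 called 3 genes lower. Beside Egr3 they were Fbln2, an extracellular matrix protein, with 43.0, 43.1 and 37.9 CPM in control and 24.3, 19.3 and 14.3 CPM in knockout libraries (edgeR adjusted p = 0.124), and Myl9, a myosin light chain of smooth muscle, with 1.37, 5.47 and 1.58 CPM in control and no count in knockout libraries, at least 27.5-fold lower against 3 counts over the knockout group (0.124).

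Without knockout 3, 28 genes were called by edgeR. Among the 16 that were not called with all libraries were Fat2, Cbln3, Gabra6, Cnpy1 and Cbln1 of the cerebellum, and also Il16, Il20rb, Chd7 and Ptpn22. Chd7, a chromatin remodeler, had 45.5, 44.0 and 42.5 CPM in control and 92.2, 93.7 and 48.9 CPM in knockout libraries, and Il20rb 4.86, 10.4 and 9.30 CPM in control and 40.1, 44.3 and 5.19 CPM in knockout libraries.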
